A study of Homo sapiens with 32 samples.

Results

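The 34 genes described here lie among 48 other genes on the long arm of human chromosome 9. Their stretch of 6.3 Mb at chr9:121207794-127503501 (GRCh38) begins with GSN and ends with LRSAM1. They were chosen by position together with a measured value, the lower expression of this stretch in p53 knockout cells than in wild-type cells in both treatments, so the knockout minus wild-type differences are given as a description without a test. The matrix listed 35587 genes, and 16824 of them reached 10 normalized counts in 4 or more libraries and were tested. Of the 34 members, 33 were tested; MORN5, with at most 6 recovered counts in any library, was not.

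The cells were U2OS, a human osteosarcoma line with wild-type p53, and lines edited from it with CRISPR-Cas9. The groups were KO (no p53), HET (p53 WT/A347D, 1 allele carrying the A347D change), HOM (p53 A347D/A347D) and WT (p53 WT/WT), each given 20 µM etoposide (ETO) or DMSO for 24 h. Each of the 8 groups held 4 poly-A RNA libraries from separate plates, which the submitters count as biological replicates. The WT libraries carry the label PAR, read here as the parental line. Each difference from WT thus also sets an edited line against the parental line, and genotype and editing cannot be told apart. How many edited clones stood behind a genotype is not given in the sources used here, so genotype and clone cannot be told apart. The p-values measure the spread between plates, pooled for each gene over all 8 groups and not only over the groups compared.

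Etoposide traps topoisomerase II on broken DNA, and p53 is a transcription factor that becomes active after such damage. The members share a neighbourhood rather than a pathway: they encode regulators of small GTPases, actin-binding proteins, kinases, proteasome and ubiquitin components, RNA-binding proteins, LIM-homeobox factors and secreted proteins. U2OS has a heavily rearranged karyotype, and its sublines are known to differ in it.

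Libraries held 18.25 to 24.19 M recovered counts, apart from replicate 2 of HET ETO at 8.05 M. Replicates 2 to 4 of HOM DMSO stood apart, with 20.68 to 21.92% of counts from mitochondrial genes against 7.87 to 15.15% in all other libraries, so the main results that rest on them are also given without them. Of 8 bone markers 7 were tested, with COL1A1, SPARC and RUNX2 at 300.3 normalized counts or more in every library, COL1A2 (at most 54.2) and BGLAP (at most 26.1) low and IBSP below the filter. Of 4 blood markers PTPRC alone was tested (mean 12.9), with CD3E, HBB and LYZ below the filter, and the endothelial markers PECAM1 and CDH5 were tested (means 28.1 and 9.91). The summed bone markers were 57750 to 64190 in KO ETO against 89990 to 100600 in WT ETO, and 65700 to 68710 in KO DMSO against 78250 to 126400 in WT DMSO. The summed level of 4 epithelial markers, of which KRT14 made up most, was 844 to 1016 in KO ETO against 211.1 to 236.8 in WT ETO, and 2289 to 2713 in KO DMSO against 791.9 to 1023 in WT DMSO; the part of either list in the results was not tested. In bulk RNA, fewer cells of a type and less RNA per cell cannot be told apart.

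Across the stretch, KO cells held less RNA of most members than WT cells. The median log2 difference over the 33 tested members was -0.44 in etoposide and -0.44 in DMSO, while over all 16824 tested genes it was -0.03 in etoposide and 0.02 in DMSO. Taken library by library against the WT mean, the member median was -0.47 ± 0.04 in KO ETO, with a range of -0.51 to -0.42, and -0.40 ± 0.04 in KO DMSO, with a range of -0.44 to -0.36 (SD, n = 4 each). The same median was 0.00 ± 0.02 in HET ETO, -0.07 ± 0.06 in HET DMSO, 0.00 ± 0.03 in HOM ETO and 0.07 ± 0.10 in HOM DMSO, so HET and HOM lay near WT.

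The direction was shared by most members but not by all. KO was below WT for 28 of 33 members in etoposide and for 29 of 33 in DMSO. Every KO library lay below every WT library for 24 members in etoposide, where 27.9% of all tested genes did so, and for 18 members in DMSO, where 10.5% did so. The reverse order held for 3 members in etoposide (LHX6, OLFML2A and RALGPS1; 24.2% of all tested genes) and for 0 in DMSO (6.96%). Since the members were chosen on this comparison, nothing is read from these shares. In the authors' deposited table the member medians were -0.42 in etoposide, with 28 members below 0, and -0.44 in DMSO, with 29 below 0. Member differences in the 2 treatments had Pearson's r = 0.63 and Spearman's rho = 0.40 over the 33 genes, as a description across genes that share the same lines.

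**Figure D1:**
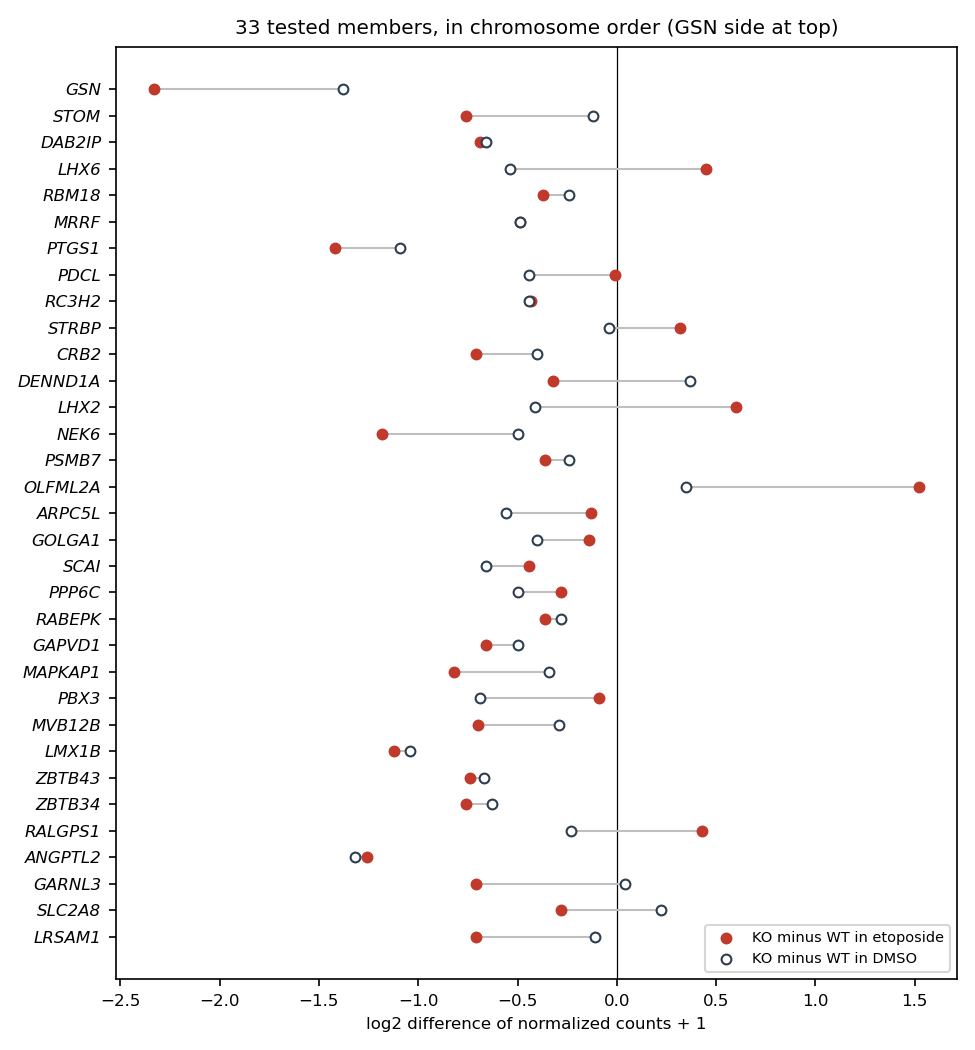
KO minus WT log2 difference of each tested member (x axis) in etoposide (filled) and DMSO (open), in chromosome order. Most points lie left of 0, GSN reaches -2.33 in etoposide, and OLFML2A lies right of 0 in both treatments.

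GSN encodes gelsolin, which severs and caps actin filaments, and had the most negative difference of the members. It had 568, 594, 583 and 586 normalized counts in the KO ETO libraries, against 3021, 2895, 2901 and 2946 in WT ETO. In DMSO it had 1615, 1660, 1726 and 1880 in KO, against 3832, 4429, 5255 and 4485 in WT. No KO library reached a WT library in either treatment, and the log2 differences were -2.33 in etoposide and -1.38 in DMSO. The other actin and membrane members, STOM (stomatin, a membrane scaffold protein) and ARPC5L (a subunit of the actin-nucleating Arp complex), differed by -0.76 and -0.13 in etoposide and by -0.12 and -0.56 in DMSO.

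ANGPTL2, a secreted angiopoietin-like protein, had 377, 343, 317 and 285 normalized counts in KO ETO, against 773, 706, 836 and 844 in WT ETO. In DMSO it had 231, 272, 272 and 284 in KO, against 680, 626, 648 and 687 in WT. The groups did not overlap, and the differences were -1.26 in etoposide and -1.32 in DMSO, nearly the same with and without the drug. PTGS1, the constitutive cyclooxygenase of prostaglandin synthesis, was a low-count gene with 13.3 ± 3.42 in KO ETO against 36.6 ± 3.55 in WT ETO, and 5.06 ± 1.16 in KO DMSO against 12.2 ± 3.69 in WT DMSO (SD, n = 4 each). Its differences were -1.42 in etoposide and -1.09 in DMSO. The polarity protein gene CRB2 differed by -0.71 in etoposide and -0.40 in DMSO, and the glucose transporter gene SLC2A8 by -0.28 and 0.22.

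OLFML2A, which encodes a secreted olfactomedin-domain protein, went against the stretch. It had 212, 234, 258 and 230 normalized counts in KO ETO, against 74.8, 83.3, 87.1 and 78.1 in WT ETO, with no overlap. In DMSO the KO libraries had 313, 346, 321 and 345, against 419, 232, 184 and 255 in WT, where 1 WT library lay above all KO libraries. The differences were 1.52 in etoposide and 0.35 in DMSO.

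Among the transcription regulators, all 7 tested members were below 0 in DMSO (median -0.66) and 5 of 7 in etoposide (median -0.44). LMX1B, a LIM-homeobox factor of limb and kidney development, had 26.7, 36.5, 36.5 and 37.0 normalized counts in KO ETO, against 75.6, 68.2, 81.9 and 75.2 in WT ETO. In DMSO it had 69.1, 70.7, 60.8 and 81.3 in KO, against 183, 108, 109 and 205 in WT. The differences were -1.12 and -1.04, without overlap in either treatment. The neighbouring zinc finger genes ZBTB43 and ZBTB34 differed by -0.74 and -0.76 in etoposide and by -0.67 and -0.63 in DMSO. The LIM-homeobox genes LHX6 and LHX2 differed in sign by treatment, at 0.45 and 0.60 in etoposide and -0.54 and -0.41 in DMSO; LHX2 was a low-count gene, with 20.7 ± 5.09 in KO ETO and 6.52 ± 3.88 in KO DMSO. PBX3, a homeobox partner of HOX proteins, differed by -0.09 and -0.69, and SCAI, an inhibitor of the SRF coactivator MRTF, by -0.44 and -0.66.

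The 4 kinase, phosphatase and signalling members were below 0 in both treatments. NEK6, a mitotic kinase, had 340, 363, 297 and 335 normalized counts in KO ETO, against 753, 808, 752 and 704 in WT ETO, and 724, 862, 879 and 832 in KO DMSO, against 1188, 1113, 1244 and 1118 in WT DMSO. Its differences were -1.18 in etoposide and -0.50 in DMSO. MAPKAP1, a subunit of the mTOR complex that phosphorylates AKT, differed by -0.82 and -0.34, PPP6C, a protein phosphatase catalytic subunit, by -0.28 and -0.50, and PDCL, a phosducin-like chaperone of G protein subunits, by -0.01 and -0.44.

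Of the 8 GTPase and membrane traffic members, 7 were below 0 in etoposide (median -0.51) and 6 in DMSO (median -0.28). DAB2IP, a Ras GTPase-activating protein, had 1219, 1330, 1153 and 1217 normalized counts in KO ETO, against 1960, 1741, 2187 and 2084 in WT ETO. In DMSO it had 1332, 1574, 1490 and 1830 in KO, against 2795, 2294, 1966 and 2807 in WT. Both comparisons were free of overlap, at -0.69 and -0.66. GAPVD1, an exchange factor for an endosomal Rab, differed by -0.66 in etoposide and -0.50 in DMSO, the ESCRT subunit gene MVB12B by -0.70 and -0.29, the Rab effector gene RABEPK by -0.36 and -0.28, and the golgin gene GOLGA1 by -0.14 and -0.40. DENND1A, a Rab exchange factor of endocytosis, differed by -0.32 in etoposide and 0.37 in DMSO, and GARNL3 by -0.71 and 0.04. RALGPS1, a Ral exchange factor, had 69.1 to 79.6 in KO ETO against 48.7 to 65.5 in WT ETO, and 125 to 141 in KO DMSO against 135 to 177 in WT DMSO, so it was above WT in etoposide (0.43) and overlapped it in DMSO (-0.23).

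The protein turnover members PSMB7, a catalytic subunit of the proteasome, and LRSAM1, a ubiquitin ligase, differed by -0.36 and -0.71 in etoposide and by -0.24 and -0.11 in DMSO. PSMB7 had 1534 ± 109 in KO ETO against 1977 ± 176 in WT ETO, and 2149 ± 158 in KO DMSO against 2569 ± 553 in WT DMSO (SD, n = 4 each), the DMSO groups overlapping. Among the RNA-binding members, MRRF (a mitochondrial ribosome recycling factor) differed by -0.49 in both treatments, RC3H2 (roquin-2, an mRNA decay factor) by -0.43 in etoposide and -0.44 in DMSO, and RBM18 by -0.37 and -0.24. STRBP, a double-stranded RNA-binding protein, overlapped WT in both treatments, with 148 to 191 in KO ETO against 124 to 150 in WT ETO, and 164 to 211 in KO DMSO against 186 to 221 in WT DMSO.

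**Figure D2:**
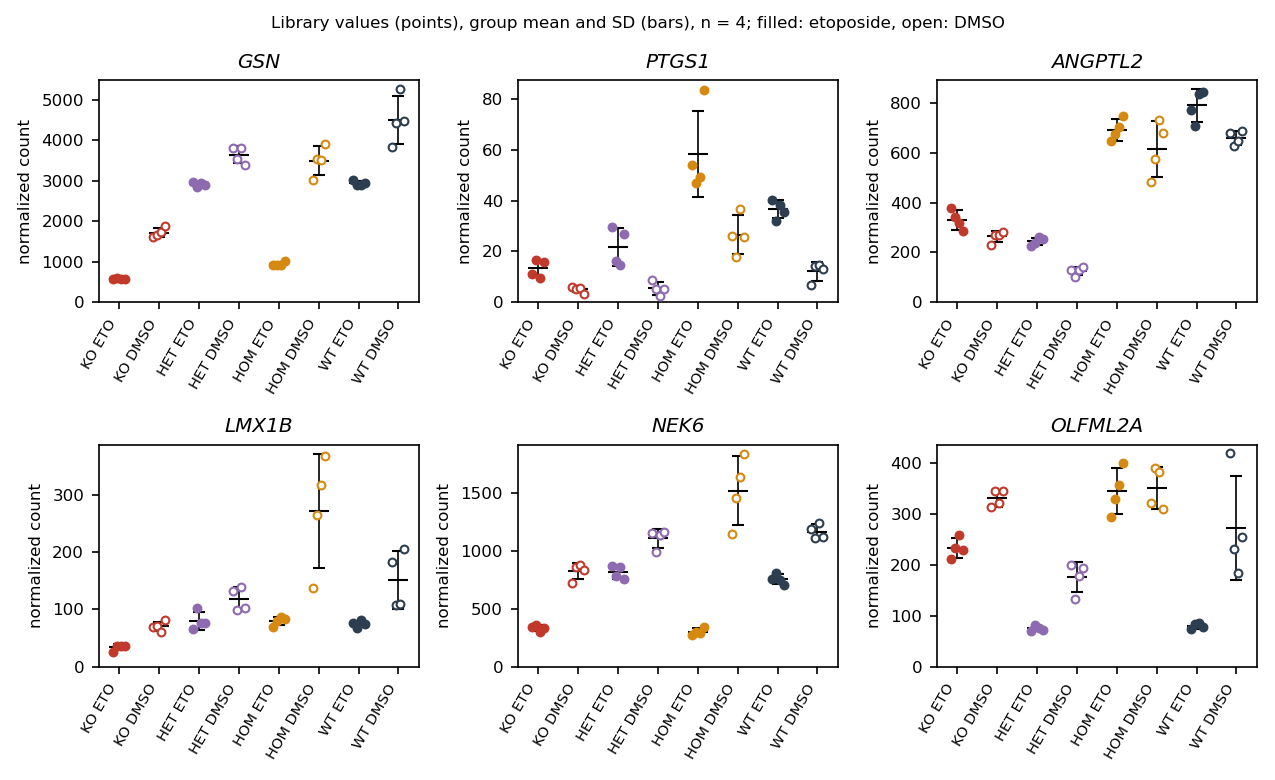
Normalized counts of 6 members in each library (points), with group mean and SD (bars, n = 4), etoposide left of DMSO within each genotype. GSN, PTGS1, ANGPTL2 and LMX1B are lower in KO than in WT in both treatments, and OLFML2A is higher in KO ETO and HOM ETO than in WT ETO.

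The 250 bases upstream of the RefSeq starts (GRCh38.p14) were read for 33 members with 53 annotated starts. The sequences of the members with the most negative and the most positive difference, together with the low ANGPTL2 and LMX1B, are shown to set their starts side by side, with GC boxes (GGGCGG or its complement CCGCCC) in capitals. For GSN and OLFML2A, which have several starts, the first along the chromosome is shown. They lie at chr9:121201233-121201482 on the plus strand for GSN, chr9:127122636-127122885 on the minus strand for ANGPTL2, chr9:126613678-126613927 on the plus strand for LMX1B and chr9:124776883-124777132 on the plus strand for OLFML2A.
GSN: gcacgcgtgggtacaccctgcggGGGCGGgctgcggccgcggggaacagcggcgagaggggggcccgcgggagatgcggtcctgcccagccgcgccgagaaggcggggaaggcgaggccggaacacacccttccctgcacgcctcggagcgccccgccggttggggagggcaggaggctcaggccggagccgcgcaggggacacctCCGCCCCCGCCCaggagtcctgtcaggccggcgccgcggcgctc
ANGPTL2: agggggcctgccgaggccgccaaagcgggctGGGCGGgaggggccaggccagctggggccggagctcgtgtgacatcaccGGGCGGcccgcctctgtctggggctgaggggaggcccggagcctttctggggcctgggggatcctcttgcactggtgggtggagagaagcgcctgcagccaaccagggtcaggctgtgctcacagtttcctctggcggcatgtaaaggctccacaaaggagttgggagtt
LMX1B: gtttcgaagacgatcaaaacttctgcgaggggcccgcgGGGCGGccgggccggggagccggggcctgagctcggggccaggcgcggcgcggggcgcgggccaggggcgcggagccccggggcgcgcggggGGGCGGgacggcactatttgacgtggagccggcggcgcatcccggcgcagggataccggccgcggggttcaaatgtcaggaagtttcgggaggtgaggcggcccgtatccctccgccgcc
OLFML2A: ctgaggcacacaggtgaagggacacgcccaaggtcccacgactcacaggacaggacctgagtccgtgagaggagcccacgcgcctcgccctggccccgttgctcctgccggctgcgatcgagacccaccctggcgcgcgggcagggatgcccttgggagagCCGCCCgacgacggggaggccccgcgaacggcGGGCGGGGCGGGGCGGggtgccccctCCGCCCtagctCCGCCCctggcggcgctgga
These windows held 3, 2, 2 and 6 GC boxes. A GC box on either strand was present at 30 of the 53 member starts (56.6%), and at 42.6% of 35114 RefSeq starts. The median GC content was 66.8% over the member starts and 58.0% over all starts. CCAAT was present at 13 of the 53 member starts and 11240 of the 35114, TATAAA at 7.55% and 10.7%, CACGTG at 3.77% and 6.35%, and CCGGAAG at 11.3% and 8.52%, each on both strands. A p53 half-site was present at 1 member start (1.89%), that of MAPKAP1, and at 5.57% of all starts. These matches describe the letters in the windows and were not tested.

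The lower level in KO was not limited to the listed genes. Another 14 tested genes lie in the same stretch, and KO was below WT for 13 of 14 in etoposide (median -0.59) and 14 of 14 in DMSO (median -0.44). They include the ribosomal protein gene RPL35 (-0.33 in etoposide, -0.27 in DMSO), the small GTPase gene RAB14 (-0.47, -0.40) and the endoplasmic reticulum chaperone gene HSPA5 (-0.70, -0.15). The nuclear receptor gene NR5A1 (-1.14, -1.32) is also among them, a low-count gene with a mean of 9.76 normalized counts over all libraries. Within 10 Mb to the left of the stretch, 40 of 54 genes were below 0 in etoposide (median -0.33) and 52 of 54 in DMSO (median -0.40). Within 10 Mb to the right, 126 of 182 were below 0 in etoposide (median -0.25) and 132 of 182 in DMSO (median -0.12). The other 401 tested genes of chromosome 9 had medians of 0.00 and 0.08, with 202 below 0 in etoposide and 144 in DMSO. Single places among them were as low as the stretch in 1 treatment. The 10 genes between 38 and 40 Mb had medians of -0.15 in etoposide and -0.44 in DMSO. The 7 genes between 66 and 68 Mb had -1.30 and -0.03. Other places were high, such as 0.44 and 0.57 between 76 and 78 Mb (6 genes).

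In windows of 2 Mb the DMSO difference was 0.07 between 108 and 110 Mb (9 genes), -0.36 between 110 and 112 Mb (12 genes), -0.54 between 112 and 114 Mb (23 genes), -0.14 between 114 and 116 Mb (8 genes), -0.46 between 116 and 118 Mb (4 genes), -0.43 between 120 and 122 Mb (15 genes), -0.44 between 122 and 124 Mb (13 genes), -0.45 between 124 and 126 Mb (18 genes) and -0.10 between 128 and 130 Mb (46 genes). In DMSO the window medians thus lay below 0 from about 10 Mb left of GSN, at unequal depth, and stood at -0.16 between 126 and 128 Mb and between -0.21 and -0.08 from 128 to 138 Mb. In etoposide the window between 126 and 128 Mb stood at -0.49 and the next at -0.15. The nearest tested protein-coding genes outside the left end, C5 and CNTRL, differed by 0.58 and 1.28 in etoposide and by -1.01 and -0.28 in DMSO. C5 was a low-count gene, with a mean of 16.1 normalized counts over all libraries. Outside the right end, FAM129B differed by -1.43 in etoposide and -0.50 in DMSO. The windows were laid after the values had been seen, and neighbouring genes share the same libraries.

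**Figure D3:**
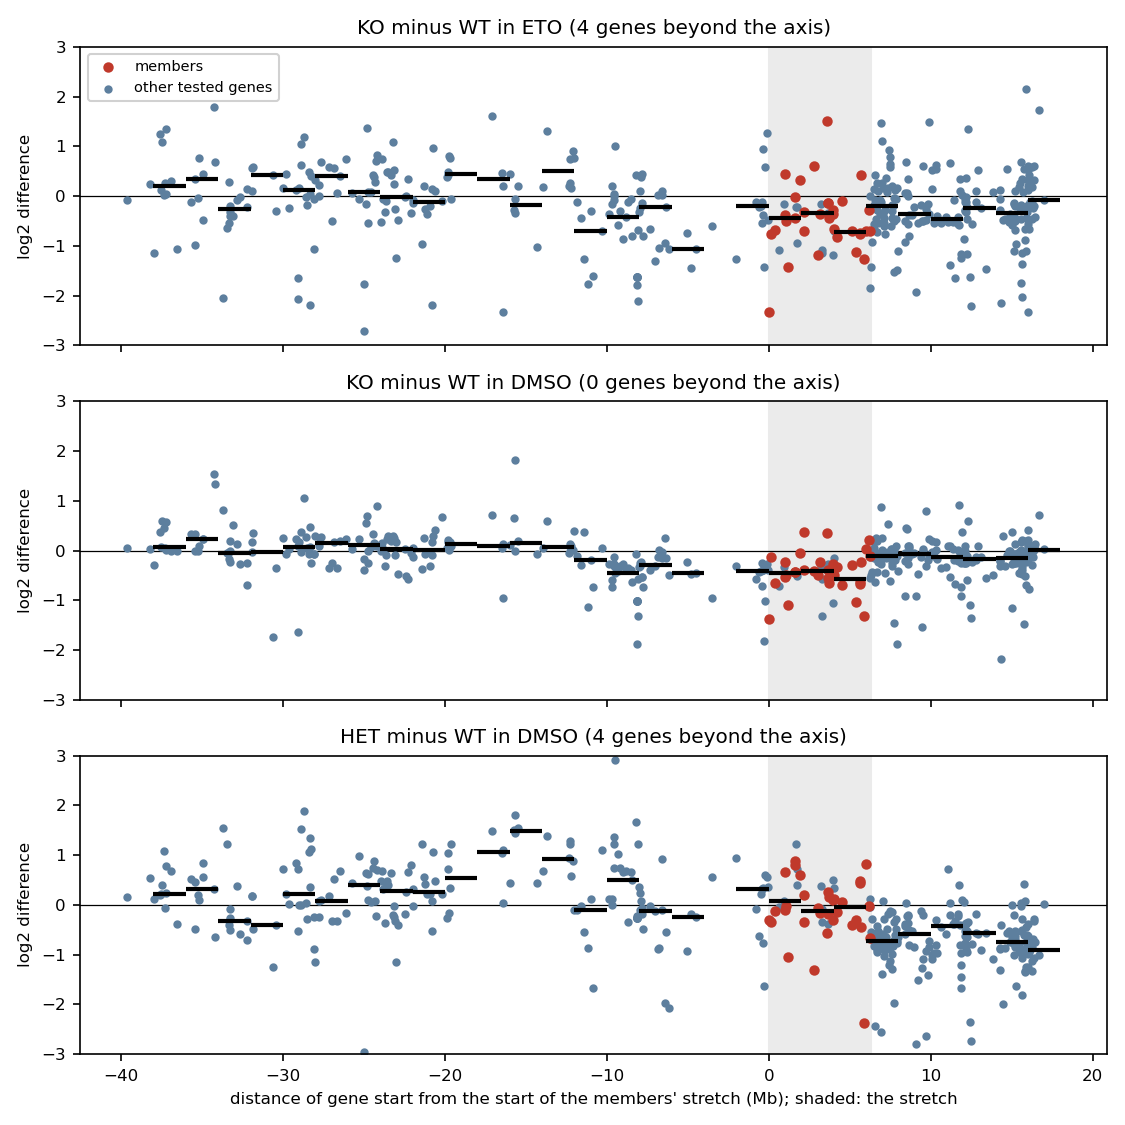
Log2 difference of tested genes (points, members in red) against distance of the gene start from the start of the stretch in Mb, for KO minus WT in etoposide, KO minus WT in DMSO and HET minus WT in DMSO. Bars are medians of 2 Mb windows with at least 3 genes: most KO windows lie below 0 from left of the shaded stretch on, also past its end,, and HET windows that begin right of the members lie below 0.

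HET and HOM cells were then set against the same WT libraries that served in the choice of the members. In HET ETO, 5 members were higher than in WT and 3 lower, where 15.2% and 20.8% of all tested genes were called (limma, adjusted p under 0.05). In HET DMSO, 6 were higher and 8 lower, where 21.7% and 24.6% of all genes were called. The member medians were -0.01 in etoposide and -0.11 in DMSO, so the members' counts lay near or below the background. Genes just right of the stretch differed in this line: of 182 within 10 Mb, 135 were called lower in HET ETO (median -0.65) and 144 in HET DMSO (median -0.73). By comparison 3 of 33 members were called lower in HET ETO and 8 of 33 in HET DMSO. The difference between the lists was not tested. The same 182 genes also moved in HOM DMSO, all replicates included: 141 were called higher than in WT (median 0.80), where 30.2% of all genes were. In HOM ETO 49 were called higher and 32 lower (median 0.02). Far from the stretch, HET medians went both ways. They were -0.65 in etoposide and -0.72 in DMSO between 34 and 36 Mb (47 genes). Between 4 and 6 Mb they were 0.86 and 0.94 (16 genes). Over the other 401 tested genes of chromosome 9 they were 0.22 in etoposide, with 246 genes above 0, and 0.19 in DMSO, with 235 above 0.

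ANGPTL2 had the largest HET difference of the members. It had 226, 240, 260 and 252 normalized counts in HET ETO, against 773, 706, 836 and 844 in WT ETO, a difference of -1.68 ± 0.12 (SE, adjusted p = 3.13e-12). In DMSO it had 131, 103, 130 and 142 in HET, against 680, 626, 648 and 687 in WT (-2.38 ± 0.12, adjusted p = 6.21e-16). It was thus low in both KO and HET, while HOM, with 692 ± 43.4 in etoposide and 616 ± 112 in DMSO (SD, n = 4), did not pass the test against WT. PTGS1 fell in HET as well, by 0.77 in etoposide (adjusted p = 0.041) and by 1.05 in DMSO (adjusted p = 0.00481); its HET DMSO libraries held 2.62 to 8.74 normalized counts, near the floor of 3 counts. The etoposide call for PTGS1 was lost without HET ETO replicate 2 or 3 or WT ETO replicate 1, 3 or 4, at -0.61 to -0.78.

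The RNA-binding and signalling members PDCL, STRBP and RBM18 rose in HET in both treatments. PDCL had 491, 523, 369 and 447 normalized counts in HET ETO, against 268, 340, 259 and 281 in WT ETO (0.67, adjusted p = 0.000257), and 418, 531, 388 and 411 in HET DMSO, against 240, 244, 247 and 210 in WT DMSO (0.88, adjusted p = 4.55e-06). STRBP had 236 ± 15.3 in HET ETO against 136 ± 10.8 in WT ETO (0.80, adjusted p = 0.00957), and 303 ± 52.7 in HET DMSO against 198 ± 15.9 in WT DMSO (0.60, adjusted p = 0.04). RBM18 differed by 0.41 in etoposide and 0.67 in DMSO. The DMSO call for STRBP was lost without HET DMSO replicate 1, 2 or 4 or WT DMSO replicate 1, 3 or 4, at 0.49 to 0.61.

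In HOM ETO, 8 members were higher than in WT ETO and 8 lower, where 18.9% and 21.4% of all genes were called. GSN had 920, 922, 926 and 1016 normalized counts in HOM ETO, against 3021, 2895, 2901 and 2946 in WT ETO, and differed by -1.64 ± 0.08 (adjusted p = 8.95e-16). NEK6 had 272, 304, 288 and 346 in HOM ETO, against 753, 808, 752 and 704 in WT ETO (-1.32 ± 0.11, adjusted p = 4.96e-11). OLFML2A had 294, 330, 357 and 400 in HOM ETO, against 74.8, 83.3, 87.1 and 78.1 in WT ETO (2.08 ± 0.16, adjusted p = 1.61e-11). For these 3 genes the HOM and KO differences in etoposide had the same sign, and both are measured against the same WT libraries. MAPKAP1 (-0.94), PSMB7 (-0.42) and DENND1A (-0.62) were also lower in HOM ETO, and LHX6 (1.26), STRBP (0.74) and PDCL (0.56) were higher. LHX6 had 178, 220, 219 and 251 normalized counts in HOM ETO, against 89.9, 92.3, 82.7 and 92.5 in WT ETO, with no overlap. The DENND1A call was lost without HOM ETO replicate 1, 2 or 3 or WT ETO replicate 1, 3 or 4, at -0.56 to -0.63.

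In HOM DMSO, 14 members were higher than in WT DMSO and 13 lower, where 30.2% and 34.4% of all genes were called. These calls rest on the spread pooled over all groups. With the compared groups fitted alone, 2 members were called, where 671 of 16824 genes were higher and 499 lower. Without the HOM DMSO replicates 2 to 4, which left 1 library assumed to vary like the other groups, 1 member was higher and 1 lower, where 1.47% and 4.39% of all genes were called. Those members were SLC2A8, a sugar transporter gene, and GSN, which differed by -0.36 with all libraries (adjusted p = 0.000453) and by -0.56 without the 3 (adjusted p = 0.00153). Of the other members, LMX1B differed by 0.81 with the 3 libraries and -0.08 without, STOM by -0.56 and 0.12, and DENND1A by 1.24 and 0.34, none of them called without them.

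Set against the edited lines directly, as values only because they share the KO libraries of the choice, KO was below HET for 27 of 33 members in etoposide (median -0.48) and 23 of 33 in DMSO (median -0.44). KO was below HOM for 28 of 33 in etoposide (median -0.47) and 23 of 33 in DMSO (median -0.37); without HOM DMSO replicates 2 to 4 the DMSO values were 28 of 33 and -0.46. The medians over all tested genes were -0.04 and -0.02 against HET, and -0.01 and 0.03 against HOM. ANGPTL2 was among the members above HET, with a KO minus HET difference of 0.43 in etoposide and 1.06 in DMSO. GSN had a KO minus HOM difference of -0.70 in etoposide and -1.02 in DMSO (-0.82 without those replicates).

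Etoposide moved the members in both directions in every genotype. In KO, 11 rose and 11 fell, where 23.5% and 22.6% of all genes were called. In HET, 10 rose and 10 fell, where 22.3% and 21.1% of all genes were called. In HOM, 16 rose and 13 fell, where 42.0% and 35.2% of all genes were called, and without HOM DMSO replicates 2 to 4 the counts were 13 and 11, where 25.2% and 23.9% were called. In WT, 10 rose and 12 fell, where 25.3% and 22.8% of all genes were called. The median member response was 0.01 in KO, -0.07 in HET, 0.18 in HOM (0.09 without those replicates) and -0.05 in WT, and the medians over all tested genes were 0.05, 0.01, 0.16 and 0.05.

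The same 12 members passed the test in all 4 genotypes with 1 direction each. There were 5 higher (STOM, RBM18, PTGS1, ZBTB43 and ZBTB34) and 7 lower (GSN, DENND1A, NEK6, PSMB7, MAPKAP1, PBX3 and RALGPS1). The share of all tested genes that passed in all 4 is not given here, so nothing is read from the number. PSMB7 was near the threshold in HET (-0.33, adjusted p = 0.047) and WT (-0.36, adjusted p = 0.026). Leaving out any 1 of 21 libraries ended its HET call, and WT DMSO replicate 3 or WT ETO replicate 1, 2 or 3 its WT call, at -0.22 to -0.35. PBX3 lost its KO call without KO ETO replicate 3, at -0.35, and its HOM call without HOM DMSO replicate 1 or 3 or HOM ETO replicate 1 or 4, at -0.22 to -0.32. The call of PTGS1 in HOM was lost without HOM DMSO replicates 2 to 4 (1.09, adjusted p = 0.0525).

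STOM had a mean response of 2.03 over the 4 genotypes, and the low-count gene LHX2 1.80; without HOM DMSO replicates 2 to 4 these means were 1.86 and 1.89. It had 1124, 1058, 1076 and 1090 normalized counts in KO ETO, against 473, 367, 448 and 391 in KO DMSO, 1902, 1839, 1784 and 1794 in HET ETO, against 358, 374, 357 and 348 in HET DMSO, and 1709, 1641, 1633 and 1455 in HOM ETO, against 495, 344, 287 and 183 in HOM DMSO. In WT it had 1850, 1910, 1721 and 1895 in etoposide, against 438, 497, 465 and 422 in DMSO. The responses were 1.38 in KO (adjusted p = 3.39e-08), 2.35 in HET (adjusted p = 5.01e-13), 2.38 in HOM (adjusted p = 2.57e-13, and 1.70 without HOM DMSO replicates 2 to 4) and 2.02 in WT (adjusted p = 1.22e-11). All etoposide libraries lay above all DMSO libraries in every genotype, and the KO ETO level was the lowest of the 4.

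The adjoining zinc finger genes ZBTB34 and ZBTB43 rose together. ZBTB34 had 276, 320, 316 and 322 normalized counts in KO ETO, against 146, 109, 159 and 135 in KO DMSO, and 485, 537, 488 and 552 in HET ETO, against 317, 305, 230 and 312 in HET DMSO. It had 518, 486, 474 and 487 in HOM ETO, against 176, 80.7, 105 and 74.3 in HOM DMSO, and 512, 540, 542 and 493 in WT ETO, against 232, 246, 199 and 174 in WT DMSO. The etoposide and DMSO libraries did not overlap in any genotype. ZBTB43 had 137, 186, 171 and 208 in KO ETO, against 76.9, 66.4, 82.7 and 80.2 in KO DMSO, and 318, 318, 253 and 281 in WT ETO, against 130, 135, 142 and 88.9 in WT DMSO. The responses of ZBTB34 were 1.17, 0.83, 2.25 and 1.30 in KO, HET, HOM and WT, and those of ZBTB43 were 1.17, 0.90, 2.07 and 1.25. Without HOM DMSO replicates 2 to 4 the HOM responses were 1.47 for ZBTB34 and 1.22 for ZBTB43. PTGS1 rose by 1.23, 1.85, 1.11 and 1.57 in the same order.

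DENND1A had the most negative mean response over the 4 genotypes (-1.95, and -1.72 without HOM DMSO replicates 2 to 4), although OLFML2A and RALGPS1 fell more in WT. It had 231, 247, 214 and 246 normalized counts in KO ETO, against 777, 1026, 768 and 1023 in KO DMSO (-1.92, adjusted p = 7.34e-08), and 286, 226, 310 and 273 in HET ETO, against 789, 571, 969 and 896 in HET DMSO (-1.54, adjusted p = 2.46e-06). In HOM it had 175, 165, 176 and 254 in etoposide, against 871, 1440, 2024 and 2767 in DMSO (-3.10, adjusted p = 2.83e-12, and -2.19 without HOM DMSO replicates 2 to 4). In WT it had 292, 266, 317 and 299, against 880, 575, 559 and 799 (-1.23, adjusted p = 5.4e-05). NEK6 fell by 1.30 in KO, 0.44 in HET, 2.31 in HOM and 0.63 in WT, and RALGPS1 by 0.83, 0.98, 1.05 and 1.5; without those replicates the HOM responses were -1.92 for NEK6 and -0.60 for RALGPS1.

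**Figure D4:**
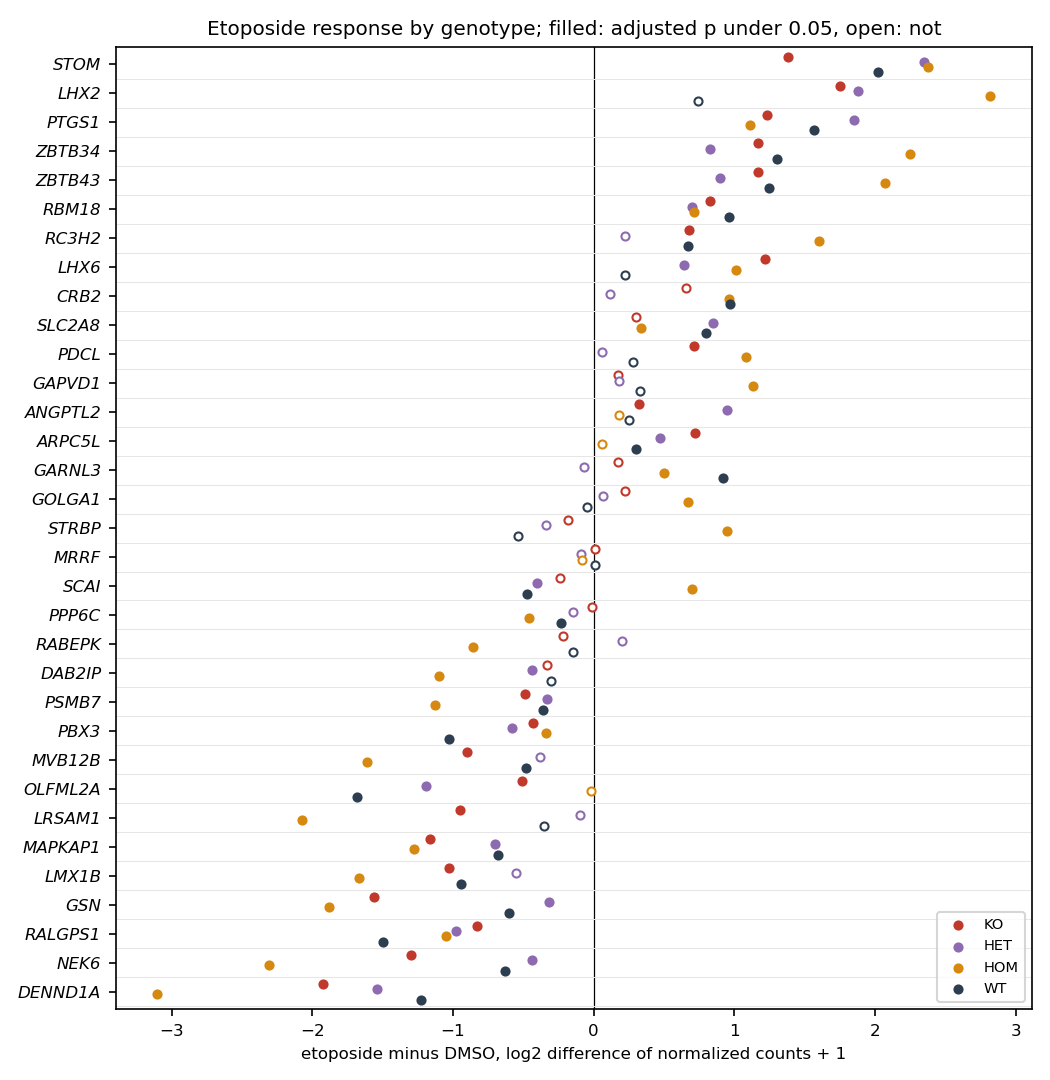
Etoposide minus DMSO log2 difference of each tested member (rows, ordered by mean response) in KO, HET, HOM and WT, with filled points where the adjusted p was under 0.05. STOM and the ZBTB genes lie right of 0 and DENND1A, NEK6 and GSN left of 0 in all 4 genotypes.

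Whether the response differed between genotypes was tested as an interaction for HET and HOM against WT. For HET, 1 member responded more and 0 less than in WT, where 3.52% and 2.19% of all genes were called. The member was ANGPTL2 (0.70 ± 0.16, limma, adjusted p = 0.00722), which rose by 0.95 in HET while its WT response was 0.25. Before adjustment, 6 of 33 members had p under 0.05 in this HET comparison. The share of all genes at that threshold is not given here, so nothing is read from this count. For HOM, 12 members responded more positively and 9 more negatively, where 28.9% and 28.3% of all genes were called. Without HOM DMSO replicates 2 to 4, 5 and 5 were called, where 10.4% and 11.9% of all genes were.

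GSN, NEK6, DENND1A, LHX6 and OLFML2A were called in the HOM interaction. Without those libraries they kept their direction, at -1.07, -1.29, -0.96, 1.49 and 1.77 in that order. The same held for LHX2 (2.09, and 2.45 without those libraries), LRSAM1 (-1.72, -0.99), SCAI (1.17, 0.72) and MAPKAP1 (-0.60, -0.78). GSN fell by 1.88 in HOM (-1.68 without those libraries) and by 0.60 in WT, an interaction of -1.27 ± 0.11 (adjusted p = 1.45e-09) and -1.07 without the 3 libraries. OLFML2A did not pass in HOM (-0.02) and fell by 1.68 in WT, an interaction of 1.65 ± 0.23 (adjusted p = 1.87e-06) and 1.77 without them. NEK6 had an interaction of -1.68 ± 0.15 (adjusted p = 2e-09) and -1.29 without them. For KO, whose difference from WT chose the members, the response differences are given without a test: GSN -0.95, NEK6 -0.67, DENND1A -0.69, STOM -0.64, LHX6 0.99 and OLFML2A 1.17, with a median of -0.08 over the 33 members and -0.04 over all tested genes.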

How the data were processed

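RNA of 32 U2OS libraries was quantified by the authors with kallisto on GRCh38 (hg38) and normalized with DESeq2, per the submitters' processing notes; no version, annotation or strand setting is stated there. The matrix the authors deposited holds variance-stabilized log2 values with a floor of 4.43. It was inverted to normalized counts, whose means equal the authors' deposited mean signal within 4.4e-14, and recovered counts were whole within 0.01 in 100.0% of values. Deposited fold changes (log2) and p-values come from the authors' own tables, of which only the KO over WT log2 values were used.

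log2(normalized count + 1) was fitted with limma 3.58.1 (trend, 1 mean per group, all 32 libraries) under R 4.3.3, two-sided, with Benjamini-Hochberg adjustment over 16824 genes. A gene was called at adjusted p under 0.05. The fit was tested on simulated data. Fold changes on this scale understate low genes. Positions came from GENCODE on GRCh38. Of the 34 members, 10 share exonic bases with another annotated gene, at most 14.7% of their length. The members, lists and tests were chosen with earlier results of these data known. Values per library were printed for the 3 members with the highest mean, the 4 lowest and 3 highest in KO minus WT, up to 6 called in all 4 etoposide responses, up to 6 that differed in HET or HOM in both treatments, and, as values, the 2 nearest coding genes beyond each end; some values under this rule and the check of the edited gene are not reported here. Alternatives were other scalings, filters, pseudocounts, weights, sample sets and left-out libraries. The number of counts sets the precision, and the floor of 3 counts covers counting error only.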

Additional observations from a re-analysis of the deposited data

Results flagged for a closer look

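Among 16 members in 8 groups, 128 groups of 4 libraries were examined for a library far from the other 3, and 8 were found; chance gives about 1 in 20. GSN had 1016 normalized counts in HOM ETO replicate 4, against 920.4 to 925.7 in the others. PTGS1 had 6.67 in WT DMSO replicate 1, against 13.3 to 14.5. LMX1B had 26.7 in KO ETO replicate 1, against 36.5 to 37.0. DENND1A had 254.3 in HOM ETO replicate 4, against 164.7 to 176.4. ZBTB34 had 275.6 in KO ETO replicate 1, against 315.8 to 322.0, and 230.1 in HET DMSO replicate 3, against 305.4 to 317.4. NEK6 had 986.4 in HET DMSO replicate 2, against 1133 to 1162. LHX6 had 65.0 in HOM DMSO replicate 1, against 124.4 to 127.0, which is the library of that group with the lower mitochondrial share.

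The etoposide response of ANGPTL2 differed between HET and WT by 0.70 on the log2 scale. Only the 16 members examined above are listed here for HOM against WT. The response differences called were -1.27 for GSN, -0.80 for DAB2IP, -0.77 for PSMB7, 1.49 for STRBP and 1.65 for OLFML2A. Also called were -1.86 for DENND1A, 0.94 for ZBTB34, 0.82 for ZBTB43, -1.68 for NEK6, 0.79 for LHX6 and 0.80 for PDCL. Without HOM DMSO replicates 2 to 4, those of DAB2IP, PSMB7, STRBP, ZBTB34, ZBTB43 and PDCL did not pass (limma, -0.15, -0.33, 0.55, 0.17, -0.03 and 0.46).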

How the results depend on the processing

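The median KO minus WT difference of the members stayed below 0 in both treatments under every alternative run, at -0.50 to -0.41 in etoposide and -0.48 to -0.42 in DMSO with 1 library left out. It moved to -0.37 in etoposide under total-count scaling, and to -0.37 in etoposide and -0.36 in DMSO on the variance-stabilized values as deposited. Of 180 member calls, 36 were lost in at least 1 fit without 1 library, and 0 were reversed.

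Requiring a 1.5-fold change as well left 13 of 20 members in the HET etoposide response, 9 of 14 for HET minus WT in DMSO (5 of 8 in etoposide) and 13 of 27 for HOM minus WT in DMSO (8 of 16 in etoposide). HET minus WT in etoposide gave 15 members with array weights and 15 when only the compared groups were fitted. Calls over all 16824 genes rose as well, from 2553 higher and 3492 lower in the main fit. They were 5592 and 5768 with array weights, and 5191 and 5278 with the compared groups alone. The HET response difference gave 3 under quantile normalization, 2 on the variance-stabilized values, 11 with array weights and 4 with the compared groups alone. HOM minus WT in DMSO gave 2 without HOM DMSO replicates 2 to 4 and 2 with the compared groups alone, and the HOM response difference gave 10 without those replicates. For the HET response difference, array weights called 1661 of all genes higher and 1564 lower, against 593 and 369 in the main fit. Quantile normalization called 805 and 511, the variance-stabilized values 601 and 524, and the compared groups alone 924 and 680. Calls over all genes thus rose along with those of the members. For HOM minus WT in DMSO, the compared groups alone gave 671 and 499, against 5080 and 5783. Shares of all genes under the 1.5-fold rule or with 1 library left out are not given here, so nothing is read from those member counts. The cause was not tested where no libraries were removed.

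With 1 library left out, the members called were 21 to 23 for the response in KO, 17 to 22 in HET, 26 to 29 in HOM and 19 to 26 in WT, 6 to 10 in etoposide and 10 to 18 in DMSO for HET minus WT, 13 to 17 in etoposide and 22 to 27 in DMSO for HOM minus WT, and 1 to 2 and 20 to 26 for the HET and HOM response differences.

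Total-count scaling moved the median of all genes by 0.97 in the HOM etoposide response, -0.51 in HOM minus WT in DMSO and 0.74 in the HOM response difference. Under it the sign turned for the HOM etoposide response of PBX3 (0.66), PPP6C (0.56) and RABEPK (0.15), for HOM minus WT in DMSO of LHX6 (-0.08), NEK6 (-0.20), OLFML2A (-0.13), PPP6C (-0.37), PSMB7 (-0.21) and RABEPK (-0.06), and for the HOM response difference of MAPKAP1 (0.18), PSMB7 (0.01) and RABEPK (0.07). Quantile normalization turned GARNL3 (-0.08, HOM etoposide response) and PSMB7 (-0.08, HOM minus WT in DMSO). Without HOM DMSO replicates 2 to 4, HOM minus WT in DMSO turned for GAPVD1 (0.04), GOLGA1 (0.12), LHX6 (-0.23), LMX1B (-0.08), NEK6 (-0.03), PSMB7 (-0.10), RABEPK (-0.17), RC3H2 (0.02), STOM (0.12) and STRBP (0.19), and the HOM response difference for ZBTB43 (-0.03).

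Replicate numbers were not used to pair the samples in the main fit: 32 same-numbered pairs had correlations of -0.18 to 0.36, and 7 were above 0.1. Values for differently numbered pairs are not given here, so these correlations do not settle whether the numbers pair the samples. With the replicate block 21 members were called in the HET etoposide response, against 20 without it; the counts of the other 9 comparisons were equal, and no member call was lost.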
